A study of Mus musculus with 2 samples.

Results

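The urothelial and squamous differentiation genes described here are 10 named genes of the 32285 listed in each library: the uroplakins Upk1a, Upk1b, Upk2, Upk3a and Upk3b, the cornified envelope precursors Ivl and Sprr1a, and Aqp3, Anxa8 and Gsta4. They were taken by name, as a list drawn up with earlier results of these data known. The study profiled single cells of the male C57BL6 mouse prostate with 10x Genomics 3' chemistry, with 1 library of the ventral lobes (kit version 2) and 1 library of the proximal and periurethral region (kit version 3). Both were prepared from papain and DNaseI digested tissue treated with TrypLE. The labels used here give no treatment, genotype, age or number of animals. The proximal library is described in depth and the ventral library serves as the reference. Each region is a single library made with its own kit version, so region, library and kit cannot be told apart, and no test between regions or between cell classes was possible.

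Uroplakins are membrane proteins that form the rigid plaques on the apical surface of bladder umbrella cells. The tetraspanins Upk1a and Upk1b each pair with a partner, Upk1a with Upk2 and Upk1b with Upk3a or Upk3b. Involucrin (Ivl) and the small proline-rich protein Sprr1a are crosslinked by transglutaminases into the cornified envelope of squamous epithelium. Aqp3 is a water and glycerol channel of basal epithelial layers, Anxa8 is a calcium-dependent membrane-binding annexin, and Gsta4 is a glutathione S-transferase that conjugates 4-hydroxynonenal, a product of lipid peroxidation.

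In the GENCODE vM21 annotation of the build GRCm38, Upk1a lies at chr7:30603092-30612847 (minus strand), Upk1b at chr16:38773184-38800328 (minus), Upk2 at chr9:44452715-44454976 (minus), Upk3a at chr15:85017141-85022547 (plus) and Upk3b at chr5:136038496-136046487 (plus). Aqp3 lies at chr4:41092722-41098183 (minus), Anxa8 at chr14:34085981-34100571 (plus) and Gsta4 at chr9:78182774-78209349 (plus). Ivl at chr3:92570902-92573735 and Sprr1a at chr3:92483952-92485895 are neighbours on the minus strand, 85006 bp apart with 2 protein-coding genes between them. Anxa8 overlaps A630023A22Rik, a protein-coding gene on the opposite strand. The strand setting of the counting is not given in the sources used here, so reads of that pair may not be fully separated. The other 9 overlap no annotated gene.

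RefSeq promoters (GRCm38.p6, 250 bases before to 50 after the start site) were matched for 7 of the 10 genes; Upk1b, Upk2 and Gsta4 had no entry. Those of 4 genes are printed here; they belong to the genes whose cluster pattern the results turn on, and each reads 5′ to 3′ on the minus strand. Capitals mark matches on either strand to TGANTCA, the AP-1 motif, or to TATAAA.
Ivl, chr3:92573686-92573985: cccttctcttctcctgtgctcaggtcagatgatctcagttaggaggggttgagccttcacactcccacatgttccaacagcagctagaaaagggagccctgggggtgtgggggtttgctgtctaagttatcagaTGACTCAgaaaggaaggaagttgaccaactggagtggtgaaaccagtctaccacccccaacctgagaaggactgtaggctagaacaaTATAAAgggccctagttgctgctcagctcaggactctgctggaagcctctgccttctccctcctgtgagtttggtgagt
Sprr1a, chr3:92485832-92486131: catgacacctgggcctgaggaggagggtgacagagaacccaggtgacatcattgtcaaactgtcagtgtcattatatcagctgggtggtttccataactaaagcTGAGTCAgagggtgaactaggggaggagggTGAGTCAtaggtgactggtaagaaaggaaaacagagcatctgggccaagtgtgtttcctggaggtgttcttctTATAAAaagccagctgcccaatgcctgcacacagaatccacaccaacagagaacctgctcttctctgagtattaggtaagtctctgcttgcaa
Aqp3, chr4:41098134-41098433: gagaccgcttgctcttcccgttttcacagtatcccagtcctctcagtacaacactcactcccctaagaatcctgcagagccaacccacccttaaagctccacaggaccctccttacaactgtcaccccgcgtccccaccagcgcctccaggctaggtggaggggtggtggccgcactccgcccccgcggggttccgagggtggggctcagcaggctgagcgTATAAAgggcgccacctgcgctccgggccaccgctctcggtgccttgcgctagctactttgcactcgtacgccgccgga
Upk1a, chr7:30612685-30612984: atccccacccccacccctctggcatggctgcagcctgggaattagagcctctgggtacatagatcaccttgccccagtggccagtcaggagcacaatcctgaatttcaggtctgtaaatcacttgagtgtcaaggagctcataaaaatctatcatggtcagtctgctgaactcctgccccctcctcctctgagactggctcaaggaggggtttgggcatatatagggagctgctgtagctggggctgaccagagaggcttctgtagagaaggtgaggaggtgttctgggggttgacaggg
TGANTCA occurred in 2 of the 7 promoters, once in Ivl, 116 bases before the start site, and 2 times in Sprr1a, the more distant match 146 bases before it. Of 32851 promoters of the same length, 7.81% held it. TATAAA lay 29 bases before the start site in both Ivl and Aqp3 and 43 bases before it in Sprr1a, and was present in 13.6% of all promoters. AACNGGTT, the grainyhead motif, was searched in the same way; it matched in none of the 7 and in 2.09% of all. The letters GATAAG, bound by factors of the GATA family, and GGAATG, bound by those of the TEAD family, each matched only in Upk3b, against 7.44% and 14.7% of all promoters. These matches are a description of letters and do not show a bound site.

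The deposited counts are unique molecular identifiers (UMIs), summed here over the cells of a class or cluster and given as CPM, counts scaled to a common total of UMIs. The ventral library kept 1988 of 2221 barcodes and the proximal library 3705 of 4344, with median depths of 25758.5 and 15260 UMIs per kept cell, and no barcode sequence was found in both libraries. Intervals in parentheses are exact 95% intervals for counting error only. Clusters were named from marker lists, with the ending "-like" as a reminder. The proximal library gave 919 basal-like cells, 1366 proximal luminal-like cells and 693 distal luminal-like cells, and the ventral library 141, 89 and 1699. Krt5, the keratin of the basal layer, stood at 628 CPM in proximal-library basal-like cells and 8.88 CPM in proximal luminal-like cells, and Psca, a surface marker of proximal luminal cells, at 347 and 2935 CPM. Krt20, the keratin that defines umbrella cells, was at or below 2.08 CPM in every basal-like and proximal luminal-like group, and no cluster was named umbrella-like. Doublet calling marked 0.193% of 5704 cells and so did not work, so doublets are largely not removed.

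All 10 genes were found in kept cells of the proximal library, each with at least 20 UMIs, whereas 7 were found in the ventral library and 5 reached 20 UMIs there. In the proximal library the uroplakin tetraspanins were carried mainly by luminal-like cells, Aqp3 and Anxa8 mainly by basal-like cells, and Sprr1a and Gsta4 by both. Ivl was carried mainly by 1 basal-like cluster, within it mostly by cells nearest to the proximal luminal markers, and its class ratio turned when that cluster was left out. Within each class most of the signal of several genes sat in 1 cluster. One basal-like cluster of 227 cells, called here the Aqp3-high cluster, held 24.7% of the basal-like cells, and one proximal luminal-like cluster of 449 cells, called the Upk1a-high cluster, held 32.9% of theirs. Both were singled out after their values were seen, by Aqp3 and by Upk1a, so their values are a description.

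**Figure D1:**
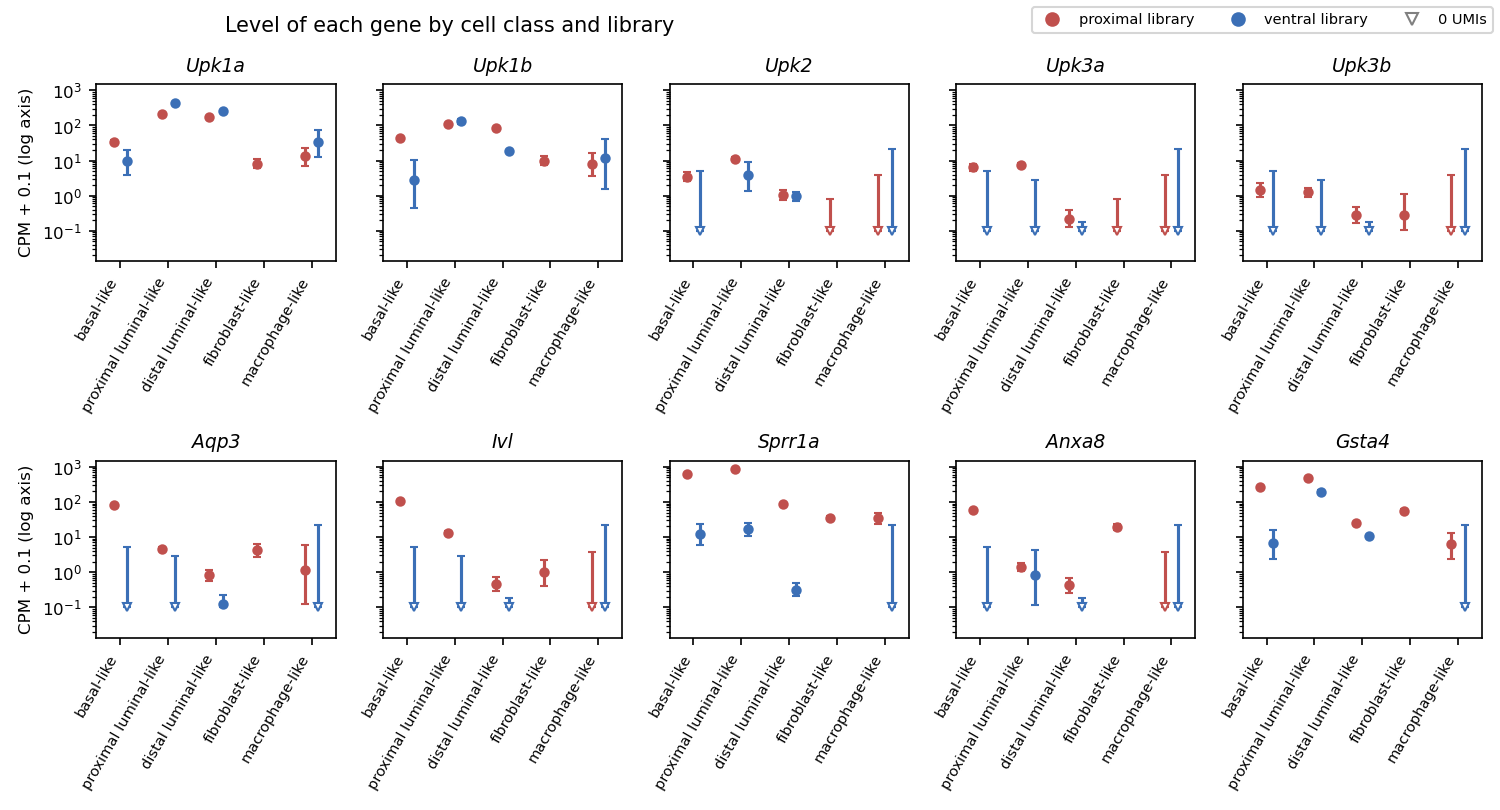
Level of each of the 10 genes as CPM + 0.1 on a log axis, 1 panel per gene, in the cell classes of the proximal library (red) and the ventral library (blue), with exact 95% intervals for counting error. Open triangles stand for 0 UMIs, with the upper limit drawn above them. Upk1a stood at 212 CPM in proximal luminal-like and 34.2 CPM in basal-like cells of the proximal library, and Anxa8 at 1.29 and 58.2 CPM.

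Upk1a, the tetraspanin partner of Upk2, was carried by luminal-like cells of both kinds. In the proximal library its level was 212 CPM (207–216) in proximal luminal-like, 173 CPM (169–178) in distal luminal-like and 34.2 CPM (31.1–37.7) in basal-like cells. In the ventral library it was 428 CPM (393–464), 256 CPM (252–261) and 9.65 CPM (3.88–19.9) in the same order. The order of the classes was the same in both libraries and no intervals overlapped within a library. Macrophage-like cells, which should lack the gene, gave 13.2 CPM (7.03–22.6) in the proximal library and 34.7 CPM (12.7–75.4, 6 UMIs) in the ventral library. The ventral cluster named T or NK cell-like, of 29 cells that should lack it too, gave 185 CPM (148–228, 86 UMIs), with a UMI in 48.3% of its cells, and carried 374906 CPM of distal luminal markers against 210916 CPM in the ventral macrophage-like cells. The part of those markers was not tested. The ventral basal-like level of Upk1a was thus not above that of cells that should lack it.

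Within the luminal-like cells Upk1a varied several-fold between clusters. It stood at 426 CPM (414–438) in the Upk1a-high cluster and between 66.8 and 309 CPM in the other proximal luminal-like clusters. Among distal luminal-like clusters of the proximal library it ranged from 22.9 to 400 CPM. In the ventral library the distal luminal-like clusters ran from 203 to 495 CPM. The ventral library therefore held Upk1a-rich cells that carried almost none of Ivl, Sprr1a, Aqp3 or Anxa8.

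Upk1b, the tetraspanin partner of Upk3a and Upk3b, was more even over the proximal luminal-like clusters, at 101 to 119 CPM in all 5. Its class levels in the proximal library were 111 CPM (107–114) in proximal luminal-like, 83.6 CPM (80.5–86.7) in distal luminal-like and 42.7 CPM (39.1–46.5) in basal-like cells. In the ventral library they were 131 CPM (112–152), 18.6 CPM (17.4–19.9) and 2.76 CPM (0.334–9.96, 2 UMIs). Proximal-library macrophage-like cells gave 8.13 CPM (3.51–16.0). The highest Upk1b level of any distal luminal-like cluster, 205 CPM (189–221), was in a cluster of 148 cells where Upk1a was at 84.6 CPM (74.7–95.4). The cluster richest in Upk1a, at 400 CPM, held Upk1b at 68.4 CPM (63.6–73.5), so the tetraspanins did not follow one order over the distal luminal-like clusters.

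Upk2, the small single-pass partner of Upk1a, was sparse. It stood at 11.04 CPM (10.02–12.1) in proximal luminal-like, 3.38 CPM (2.44–4.57) in basal-like and 0.969 CPM (0.667–1.36) in distal luminal-like cells of the proximal library. The ventral library had 3.76 CPM (1.22–8.77, 5 UMIs), 0 UMIs in basal-like cells and 0.850 CPM (0.604–1.16). In the Upk1a-high cluster Upk2 reached 23.7 CPM (21.0–26.7), against 5.76 CPM in the other proximal luminal-like clusters together. A single cell held 29.9% of the Upk2 UMIs of that cluster, and without it the level was 16.7 CPM (14.4–19.2).

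Upk3a, the partner of Upk1b that marks terminally differentiated urothelium, was the most uneven of the 10 over cells. It had 368 UMIs in the proximal library, in 26 of 3705 cells, and none in the kept cells of the ventral library. Of these cells 18 had exactly 1 UMI, while 7 cells with at least 5 UMIs held 348 UMIs, or 94.6%. The cell with most, in the Upk1a-high cluster, had 214 UMIs of Upk3a among 44657 in all. It also carried 227 UMIs of Upk1a, 102 of Upk1b, 81 of Upk2, 15 of Upk3b and 53 of Ivl, with 33 of Snx31, an umbrella cell marker, and none of Krt20 or Anxa8. The next cell, in the Aqp3-high cluster, had 60 UMIs of Upk3a with 35 of Upk1a, 65 of Upk1b, 38 of Aqp3, 47 of Ivl and 306 of Gsta4, and with 4 of Krt20 and 3 of Snx31. That cell and another of the same cluster, with 18 UMIs of Upk3a, 45 of Aqp3 and 27 of Ivl, were the only 2 cells with all 10 genes. Another cell, of proximal luminal-like cluster 0, had 38 UMIs of Upk3a but 4 of Upk1a, 1 of Upk1b and none of Upk2, so Upk3a-rich cells differed in their other uroplakins. By its own markers that cell had its highest mean level in the distal luminal list. Its doublet score was 0.0591 against a cluster median of 0.0254, from the doublet calling that did not work.

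**Figure D2:**
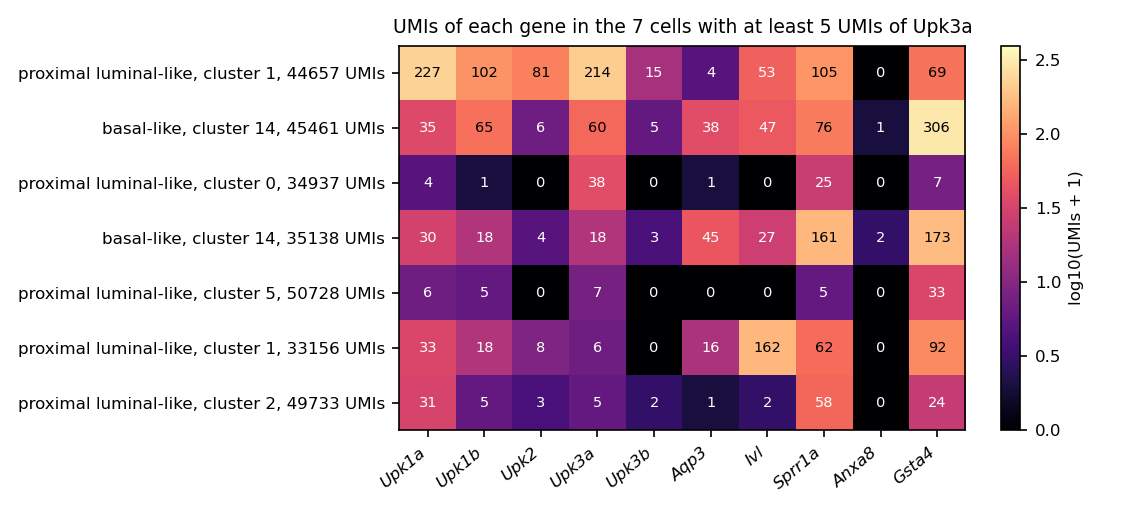
UMIs of each of the 10 genes (columns, counts printed, colour as log10 of UMIs + 1) in the 7 proximal-library cells with at least 5 UMIs of Upk3a (rows, with cluster and total UMIs). The cell with 214 UMIs of Upk3a also had the most Upk1a and Upk2 of the 7, 227 and 81 UMIs, while the cell with 38 UMIs had no Upk2.

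Class levels of Upk3a rest on these few cells. They were 7.33 CPM (6.51–8.23) in proximal luminal-like, 6.29 CPM (4.97–7.84) in basal-like and 0.117 CPM (4 UMIs) in distal luminal-like cells of the proximal library. Without the top cell the proximal luminal-like level was 1.83 CPM (1.43–2.31). Without its cells with at least 5 UMIs the basal-like class had 0 UMIs of Upk3a. Upk3b, which is also known from mesothelium, had 68 UMIs in the library, with 1.13 CPM (0.823–1.52) in proximal luminal-like, 1.37 CPM (0.798–2.19) in basal-like and 0.176 CPM (6 UMIs) in distal luminal-like cells, and none in the ventral library. Of 4 mesothelial markers, Msln stood at 9.89 CPM in the Upk1a-high cluster and the other 3 at 0. In the Aqp3-high cluster 1 of the 4 was at 0 and the list summed to 2 CPM. Their part in the Upk3b level was not tested.

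Ivl, the involucrin gene, was concentrated in the Aqp3-high cluster, at 301 CPM (285–318), with 4.74 CPM and 0.293 CPM in the other basal-like clusters. That cluster held 98.3% of the Ivl UMIs of basal-like cells. The class levels were 107 CPM (101–113) in basal-like, 13.1 CPM (12.0–14.3) in proximal luminal-like and 0.352 CPM (0.182–0.616) in distal luminal-like cells. Over cells the gene was uneven: in the Aqp3-high cluster the median cell had 0 UMIs, 63 of 227 cells had any, the highest had 252, and the 5 highest held 50.7% of the UMIs. Among proximal luminal-like cells 86.5% of the Ivl UMIs were in the Upk1a-high cluster, at 38.7 CPM (35.2–42.5). None was found in macrophage-like cells of the proximal library or in the ventral library.

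Sprr1a, the small proline-rich envelope precursor, was broad in the proximal library. It stood at 859 CPM (849–868) in proximal luminal-like, 635 CPM (621–649) in basal-like and 90.0 CPM (86.8–93.2) in distal luminal-like cells. In the ventral library it was 16.5 CPM (10.4–25.04), 12.4 CPM (5.67–23.6) and 0.218 CPM (0.104–0.401), and the first 2 intervals overlap. One ventral cell held 72.7% of the 22 UMIs of the proximal luminal-like class. Macrophage-like cells of the proximal library gave 34.5 CPM (23.9–48.3). By cluster Sprr1a was highest in the Aqp3-high cluster, at 1483 CPM (1447–1520), against 237 and 100.2 CPM in the other basal-like clusters, and it ranged from 234 to 1074 CPM over the proximal luminal-like clusters. A list of 13 stress and immediate-early genes, which dissociation can raise, summed to 10170 CPM in the Aqp3-high cluster and to 12531 and 20637 CPM in the other basal-like clusters. The part of these genes in the Sprr1a level was not tested.

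Aqp3, the water and glycerol channel, stood at 80.8 CPM (75.9–86.0) in basal-like, 4.55 CPM (3.91–5.28) in proximal luminal-like and 0.705 CPM (0.452–1.05) in distal luminal-like cells of the proximal library. In the ventral classes it was found as 1 UMI in distal luminal-like cells, and in proximal-library macrophage-like cells as 1 UMI. Anxa8, the annexin, had 58.2 CPM (54.0–62.6), 1.29 CPM (0.955–1.70) and 0.323 CPM (0.161–0.578) in the same 3 classes, and 1 UMI in the ventral epithelial classes. Both genes were spread over many cells of the Aqp3-high cluster: the median cell had 2 UMIs of each, and 168 and 159 of its 227 cells had at least 1. The cluster held 88.3% of the Aqp3 and 96.0% of the Anxa8 UMIs of basal-like cells, with levels of 204 CPM (191–218) and 160 CPM (148–172).

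Gsta4, the 4-hydroxynonenal transferase, was highest in the Aqp3-high cluster, at 677 CPM (652–702), followed by the Upk1a-high cluster at 613 CPM (598–627). The other basal-like clusters had 36.7 CPM (31.4–42.7) and 29.0 CPM (23.6–35.3), whose intervals overlap. The other proximal luminal-like clusters ranged from 290 to 470 CPM. Its class levels in the proximal library were 493 CPM (486–499.7) in proximal luminal-like, 258 CPM (250–268) in basal-like and 25.6 CPM (23.9–27.4) in distal luminal-like cells. In the ventral library they were 188 CPM (165–213), 6.89 CPM (2.24–16.1) and 10.4 CPM (9.48–11.4), the last pair overlapping. The macrophage-like level in the proximal library was 6.10 CPM (2.24–13.3).

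**Figure D3:**
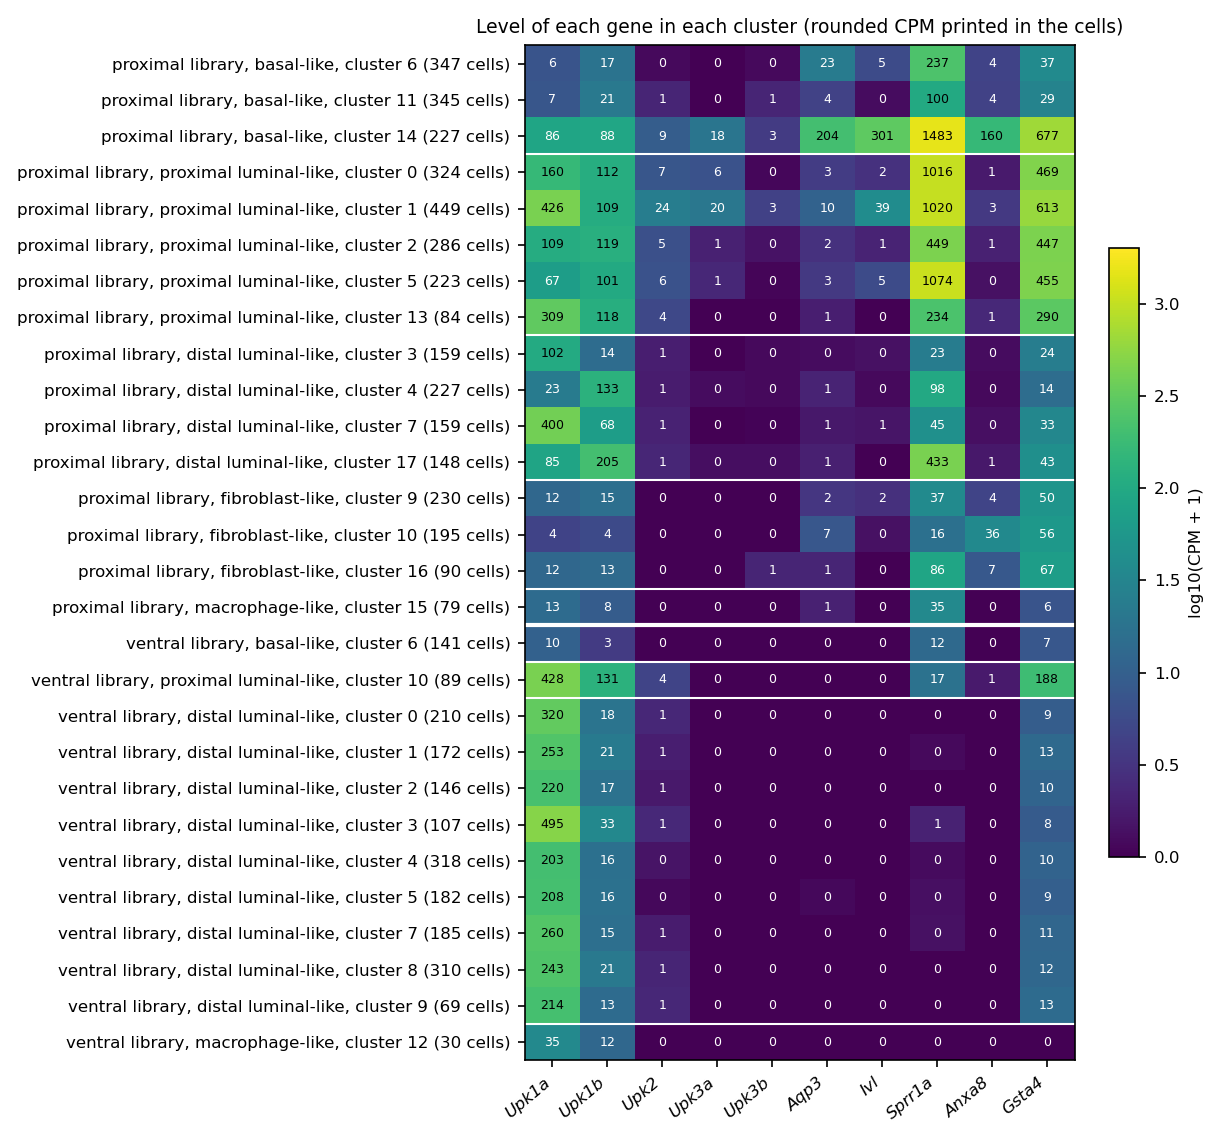
Level of the 10 genes (columns) in each cluster (rows), with rounded CPM printed and colour as log10 of CPM + 1. In the proximal library cluster 14, the Aqp3-high cluster, held the highest Ivl, Anxa8 and Aqp3, at 301, 160 and 204 CPM, and cluster 1, the Upk1a-high cluster, the highest Upk1a and Upk2, at 426 and 23.7 CPM.

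Ratios between classes were called past 2-fold on the CPM + 1 scale, over genes with at least 20 UMIs in both groups together. Of the 10 genes, 3 were higher in the basal-like class when set against the proximal luminal-like class of the proximal library, where 8.3% of 16485 genes were. Anxa8 was 45.2-fold higher (33.9–61.5), Aqp3 17.7-fold (15.1–20.9) and Ivl 8.15-fold (7.36–9.05). Another 3 were lower, against 9.12% of all genes: Upk1a 6.18-fold (5.60–6.83), Upk2 3.26-fold (2.37–4.59) and Upk1b 2.59-fold (2.36–2.84). With a pseudocount of 10 CPM the Upk2 call was lost, at -0.65 on the log2 scale. Sprr1a, with a basal-like to luminal-like ratio of 0.740 (0.722–0.758), and Gsta4, with 0.525 (0.505–0.545), did not pass, and the intervals of Upk3a and Upk3b included 1. Gsta4 lay near the threshold, at -0.93 on the log2 scale, and passed it as lower at -1.27 with a stricter cell filter (at least 1000 genes, at most 5% mitochondrial UMIs), -1.01 with the 10 genes among the variable genes, -2.56 with each cell named on its own and -1.65 with the mean of per-cell CPM. It was at -1.14 without the Upk3a-rich cells and -3.84 without the Aqp3-high cluster, and Sprr1a passed too with own naming, at -1.84, and without that cluster, at -2.26. Upk3a passed under the same 2 settings, at -3.15 and -3.06. The Ivl call depended on the Aqp3-high cluster: without it the log2 ratio was -1.88, and it was -2.20 when each cell was named on its own by its markers, both in the opposite direction. Without that cluster 7 of the 10 were lower in basal-like cells in place of 3. The size of the Anxa8 and Aqp3 folds rested largely on the cluster too. In the other basal-like cells they stood at 3.59 and 14.5 CPM, against 1.29 and 4.55 CPM in proximal luminal-like cells.

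In proximal luminal-like against distal luminal-like cells of the proximal library, 6 of the 10 genes were higher, against 18.4% of 17150 genes, and none was lower, against 8.89%. Upk3a and Ivl, with 4 and 12 UMIs in distal luminal-like cells, reached the minimum of 20 UMIs through the proximal luminal-like cells alone and could hardly come out otherwise. Upk3a was 62.4-fold higher (24.1–231), Ivl 37.3-fold (21.2–72.7), Gsta4 19.2-fold (18.0–20.6), Upk2 11.4-fold (7.99–16.8), Sprr1a 9.54-fold (9.20–9.91) and Aqp3 6.46-fold (4.20–10.4). The tetraspanins differed least, with ratios of 1.22 (1.18–1.26) for Upk1a and 1.32 (1.26–1.39) for Upk1b. Without the 7 cells with at least 5 UMIs of Upk3a the Upk3a difference did not reach 2-fold, at 0.31 on the log2 scale. With a pseudocount of 10 CPM the calls of Upk2 (0.94), Upk3a (0.78) and Aqp3 (0.44) were lost. Anxa8 passed 2-fold with own naming (2.86), and both Upk3b (2.16 and 1.03) and Anxa8 (1.71 and 1.15) with a pseudocount of 0.1 CPM and with the mean of per-cell CPM. The median log2 ratio of all genes here was 0.19, and -0.01 after scaling by trimmed means.

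Ventral basal-like against ventral proximal luminal-like cells, with 4 genes compared, showed 3 lower (Upk1a 44.3-fold, 21.4–111; Upk1b 47.4-fold, 12.9–395; Gsta4 27.3-fold, 11.5–84.7), against 20.8% of 7896 genes, and none higher, against 13.0%. Those 3 reached the UMI minimum through the proximal luminal-like cells alone, so nothing is read from their count. Sprr1a, from 9 and 22 UMIs, had a ratio of 0.750 (0.304–1.70), and with the stricter cell filter its log2 ratio turned to 1.23, while it was -3.48 with each cell named on its own and -1.69 without cells rich in Sbp and Spink1. Proximal luminal-like against distal luminal-like cells, with 5 compared, showed 4 higher, against 30.5% of 12748 genes, and none lower, against 2.8%. The median log2 ratio of all genes was 0.66, and -0.14 after scaling by trimmed means, which left Upk2 at 0.78, under 2-fold. The 4 were Sprr1a at 75.9-fold (34.5–180), which with 10 UMIs in distal luminal-like cells reached the UMI minimum through the proximal luminal-like cells alone, Gsta4 at 18.1-fold (15.5–21.1), Upk1b at 7.02-fold (5.93–8.27) and Upk2 at 4.42-fold (1.36–11.2, from 5 UMIs). Upk1a was 1.67-fold higher (1.53–1.82) and was not called, but passed 2-fold at clustering resolution 2 (log2 ratio 1.02), with each cell named on its own (1.12) and without cells rich in Sbp and Spink1 (1.01). Upk2 was at 0.34 with a pseudocount of 10 CPM. The ventral proximal luminal-like cells carried 185215 CPM of distal luminal markers and the basal-like cells 17004 CPM with 5306 CPM of fibroblast markers, and their part in these values was not tested. Of the 13 stress and immediate-early genes 10 were higher in the last comparison, of proximal over distal luminal-like cells, with a median log2 ratio of 1.61 against 0.66 over all genes, and their part was not tested either.

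Inside the basal-like class, 8 of the 8 genes compared other than Aqp3 were higher in the Aqp3-high cluster than in the other 692 basal-like cells, against 6.97% of 12899 genes, and none was lower, against 14.8%. Ivl was 106-fold higher (70.1–167), Anxa8 44.4-fold (30.6–66.8), Gsta4 20.2-fold (17.8–23.0) and Upk2 13.8-fold (5.39–44.8). Upk1a was 13.3-fold higher (9.95–18.2), Sprr1a 8.29-fold (7.83–8.78) and Upk1b 4.71-fold (3.89–5.73). Upk3a, with 78 UMIs against 0, was 48.3-fold higher against a floor of 3 counts, with an exact lower limit of 38.4, all from 2 cells. It and Upk2, with 5 UMIs in the other cells, reached the UMI minimum through the cluster alone. Aqp3, which singled out the cluster, was 14.1-fold higher (11.6–17.2), and nothing is read from that value. The cluster held both kinds of marker: the basal markers summed to 7583 CPM and the proximal luminal markers to 4549 CPM, against 659 and 744 CPM of proximal luminal markers in the other basal-like clusters. Its median cell had 16124 UMIs.

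Taken cell by cell, 120 of the 227 cells of the Aqp3-high cluster (52.9%) had their highest mean marker level in the basal list, 101 (44.5%) in the proximal luminal list and 6 in the distal luminal list. Aqp3 and Anxa8 were at similar levels on both sides, 173 and 166 CPM in the cells nearest to basal and 230 and 157 CPM in those nearest to proximal luminal. Ivl was not: it stood at 26.8 and 535 CPM. Sprr1a followed at 492 and 2317 CPM and Gsta4 at 276 and 1015 CPM. The uroplakins Upk2, Upk3a and Upk3b had no UMI in the cells nearest to basal, and Upk1a had 4.13 CPM there against 155 CPM. Upk1b was found on both sides, at 35.6 and 131 CPM. Krt5 was kept on both sides, at 1007 and 704 CPM, whereas Krt14, another basal keratin, stood at 784 and 62.3 CPM and Ly6d, a surface protein of stratified epithelium, at 68.1 and 1435 CPM. The marker lists chose the sides, so the keratin values describe the split. How far doublets of a basal and a luminal cell contribute was not tested. The 33 Ivl carriers of the cluster (those with a UMI of it after thinning to 3000 UMIs) had a median of 21946 UMIs against 15469.5 in the 192 other cells, and median doublet scores of 0.0171 and 0.0175. Carriers of Upk1a there had 20503 UMIs against 15547, and scores of 0.0292 and 0.0164. The scores come from the doublet calling that did not work, so nothing is read from them.

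Inside the proximal luminal-like class, 6 of the 9 genes other than Upk1a were higher in the Upk1a-high cluster than in the other 917 cells, against 1.82% of 15535 genes, and none was lower, against 4.37%. Ivl was 15.4-fold higher (11.9–20.1), Upk3b 15.2-fold (6.38–44.0), Upk3a 8.82-fold (6.62–11.9), Aqp3 4.35-fold (3.17–6.01), Upk2 4.12-fold (3.37–5.05) and Anxa8 3.32-fold (1.83–6.12). Upk1a, which singled out the cluster, was 3.49-fold higher. Sprr1a at 1.29-fold, Gsta4 at 1.38-fold and Upk1b, with a ratio of 0.984 (0.921–1.05), did not pass. Upk3b, with 6 UMIs in the other cells, reached the UMI minimum through the cluster alone. Without its cell richest in Upk3a the level of Upk3a in the cluster was 0.879 CPM in place of 19.6 CPM, below the 2.22 CPM of the other proximal luminal-like cells, so the direction for Upk3a rests on that cell. Of its cells 96.9% were nearest to the proximal luminal list. The summed basal markers were 2671 CPM there, against 460 to 922 CPM in the other proximal luminal-like clusters, with Krt5 at 17.6 CPM. Most of that sum was a single keratin, Krt15. In the cells nearest to the proximal luminal list it stood at 2529 CPM, with Krt14 at 12.9 CPM and Trp63 at 2.29 CPM. In such cells of the other proximal luminal-like clusters Krt15 stood at 604 CPM.

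Combinations were counted after thinning each cell to 3000 UMIs, because a share of cells with a UMI rises with depth. At that depth any uroplakin was found in 55.3% of 1323 proximal luminal-like cells (52.5–58.0), 43.4% of 647 distal luminal-like cells (39.6–47.4) and 12.4% of 900 basal-like cells (10.4–14.8). Macrophage-like cells gave 2.74%, or 2 of 73 (0.333–9.55). The median depths before thinning were 19847, 48775, 12100 and 11922 UMIs, and the unthinned shares were 92.6%, 87.0%, 30.4% and 6.33%. By cluster the share was 72.9% in the Upk1a-high cluster (68.5–77.1), 46.6% in the other proximal luminal-like cells, 30.2% in the Aqp3-high cluster (24.3–36.7) and 6.52% in the other basal-like cells (4.78–8.65).

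A uroplakin together with Ivl or Sprr1a was found in 43.1% of Upk1a-high cells (188 of 436, 38.4–47.9), in 23.2% of the other proximal luminal-like cells (206 of 887, 20.5–26.2) and in 22.2% of Aqp3-high cells (50 of 225, 17.0–28.2). It was found in 4.48% of distal luminal-like cells (29 of 647) and 1.04% of the other basal-like cells (7 of 675). In macrophage-like cells 1 of 73 had it, or 1.37% (0.0347–7.40), and in fibroblast-like cells 3 of 453, or 0.662% (0.137–1.92). The thinned share in the other basal-like cells lies within both intervals. The distal luminal-like share (3.02–6.37) lies within the first interval and above the second. The product of the separate shares of cells with a uroplakin and with Ivl or Sprr1a was 44.3% in Upk1a-high cells, 24.6% in the other proximal luminal-like cells and 16.8% in Aqp3-high cells, close to the observed share in the first pair of groups and below it in the last. No test was made of this. Unthinned, the shares were 77.5%, 69.4%, 46.7%, 56.4% and 10.5% (8.36–13.1 for the last) in the same order, against 1.27% in macrophage-like cells and 17 of 515 fibroblast-like cells, with an interval of 1.93% to 5.23%. The unthinned share in the other basal-like cells thus lay above that of the fibroblast-like cells, at median depths of 11215 and 11085 UMIs among the thinned cells. Those depths cover 675 of 692 and 453 of 515 cells and leave out the shallow ones. Over all their cells the fibroblast-like clusters had medians of 8942, 12748 and 8857.5 UMIs and the other basal-like clusters 12850 and 9777. The part of depth was not tested. In the ventral library it was seen in 3 of 89 proximal luminal-like cells (3.37%), in 0 of 132 basal-like cells, which allows a share of cells with such UMIs of up to 2.27%, and in 0 of 1686 distal luminal-like cells. Unthinned it was in 1 of 141 ventral basal-like and 8 of 1699 ventral distal luminal-like cells.

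**Figure D4:**
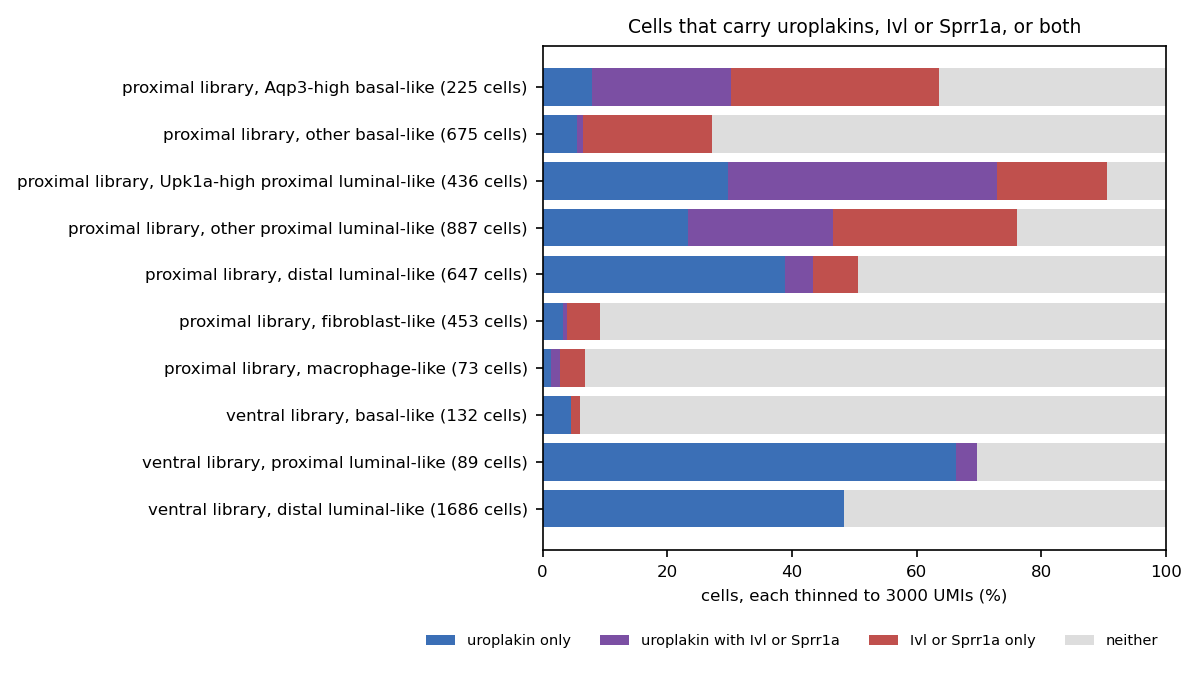
Percent of cells, each thinned to 3000 UMIs, with a uroplakin only (blue), with a uroplakin and Ivl or Sprr1a (purple), with Ivl or Sprr1a only (red) or with neither (grey), by group of cells. The purple share was 43.1% in Upk1a-high cells, 22.2% in Aqp3-high cells and 1.04% in other basal-like cells.

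The full patterns over the 10 genes showed how the groups differed. In the Upk1a-high cluster 46 patterns were seen, the commonest being Upk1a with Sprr1a and Gsta4 (17.2%) and Upk1a with Gsta4 (13.5%). In the other proximal luminal-like cells Sprr1a with Gsta4 (19.5%) and Gsta4 alone (16.6%) led. The Aqp3-high cluster was the most mixed, with 62 patterns, none above the 10.7% of Gsta4 alone, and 9.33% of its cells had none of the 10. Of the other basal-like cells 65.3% had none, and 17.6% had Sprr1a alone. Of 1686 ventral distal luminal-like cells 843 had none and 41.5% had Upk1a alone, and 92.4% of ventral basal-like cells had none.

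Higher-order combinations were rare at this depth. At least 6 of the 10 genes were found in 10 of 225 Aqp3-high cells (4.44%, 2.15–8.02), in 6 of 436 Upk1a-high cells (1.38%, 0.507–2.97) and in no cell of the other groups counted. At least 3 uroplakins were found in 15 of 436 Upk1a-high cells (3.44%, 1.94–5.61), in 3 of 887 other proximal luminal-like cells (0.338%, 0.0698–0.985) and in 1 of 225 Aqp3-high cells. Unthinned these shares were 20.9%, 12.2% and 6.61%. Ivl, Aqp3 and Anxa8 together were found in 6 of 225 Aqp3-high cells (2.67%, 0.985–5.71). Without thinning this triple was in 44 of 227 Aqp3-high cells (19.4%), in 1 of 692 other basal-like cells and in 3 of 449 Upk1a-high cells.

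Within a cluster some genes were found in the same cells. In the Aqp3-high cluster Sprr1a was found in 29 of 33 cells with Ivl (87.9%, 71.8–96.6) and in 92 of 192 cells without it (47.9%, 40.7–55.2). Gsta4 was found in 87.9% of cells with Ivl and 61.5% of cells without (54.2–68.4), and in 88.1% of cells with Upk1b and 60.1% without. Sprr1a was found in 78.8% of cells with Upk1a (61.1–91.0) and 49.5% without (42.2–56.8). For Anxa8 by Aqp3 and for Ivl by Aqp3 the intervals overlapped. The marker lists differed by Ivl too: the cells with it had 7035 CPM of proximal luminal and 6423 CPM of basal markers, and those without it 3950 and 7858 CPM.

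In the Upk1a-high cluster the cells with Upk2 had a higher share than the other cells for 4 further genes, with intervals that did not overlap. Upk1a was found in 21 of 24 cells with Upk2 (87.5%, 67.6–97.3) and in 61.7% of the 412 without (56.8–66.4). Upk1b was found in 54.2% (32.8–74.4) against 26.9% (22.7–31.5). Ivl and Aqp3 were each found in 20.8% (7.13–42.2) against 2.18% (1.00–4.11). The cells with Upk2 also had more of the proximal luminal markers, 13829 against 8782 CPM, of the basal markers, 3405 against 2633 CPM, and of the stress genes, 21435 against 17601 CPM, and the part of these was not tested. Over the whole cluster the basal sum was mostly Krt15. In the other proximal luminal-like cells, with intervals that did not overlap, Sprr1a was found in 43.9% of cells with Upk1a (37.5–50.5) and 55.7% without (51.8–59.6). Intervals cover counting error in cells of 1 library. Depth before thinning differed between the sides. In the Aqp3-high cluster the median was 20503 UMIs with Upk1a and 15547 without it, and 17896 and 15593 for Upk1b. In the Upk1a-high cluster it was 20480.5 with Upk2 and 18489.5 without it. For Upk1a in the other proximal luminal-like cells it was 21218 and 21046. The part of depth was not tested.

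**Figure D5:**
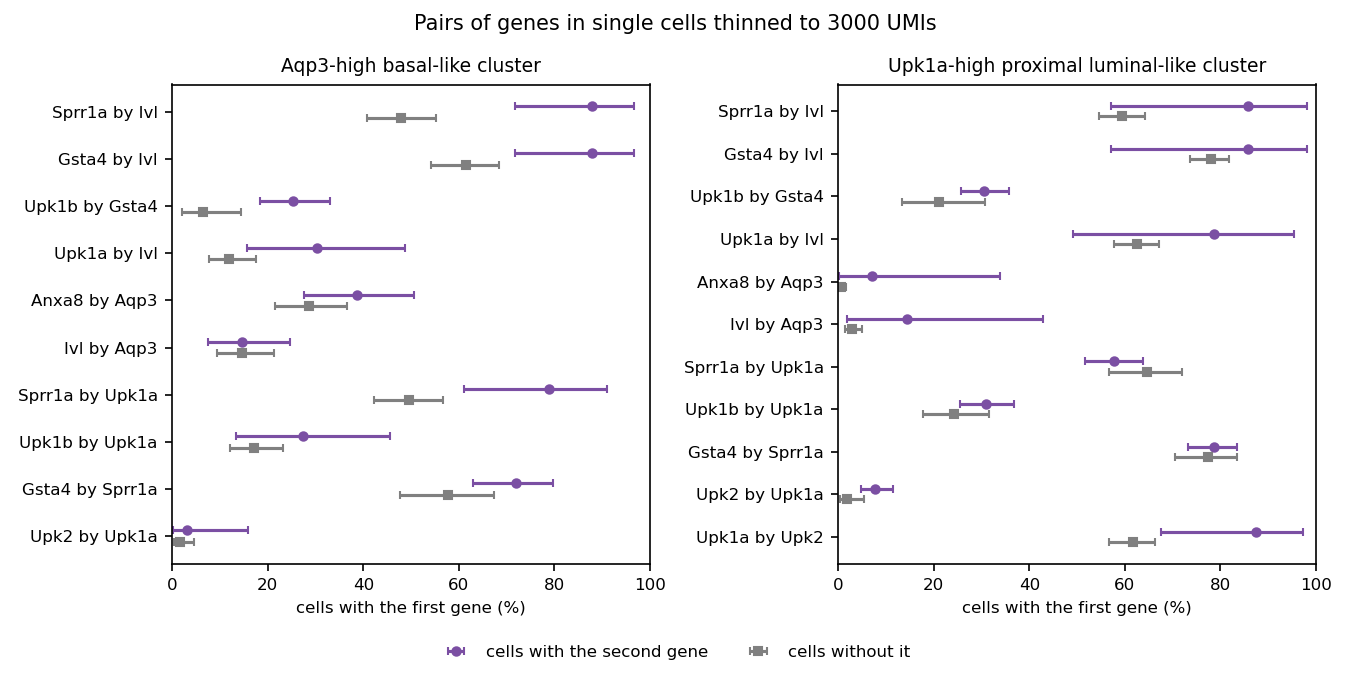
Percent of cells with a first gene among cells with a second gene (purple) and cells without it (grey), after thinning to 3000 UMIs, with exact 95% intervals, in the Aqp3-high cluster (left) and the Upk1a-high cluster (right). In the Aqp3-high cluster Sprr1a was found in 87.9% of cells with Ivl and 47.9% of those without it.

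Between the libraries, the 9 genes compared in basal-like cells had 0 to 9 UMIs each in the ventral library, so each reached the UMI minimum through the proximal library alone. That 9 were higher there, against 32.8% of 13051 genes, and none lower, against 15.9%, is therefore not read as a result. Sprr1a was 51.2-fold higher (27.0–112), Gsta4 37.5-fold (16.1–116), Upk1b 15.5-fold (4.27–128, from 2 ventral UMIs) and Upk1a 3.55-fold (1.71–8.88). Ivl, Aqp3, Anxa8 and Upk3a had no UMI in ventral basal-like cells. Against the floor of 3 counts over the group, Ivl was 25.9-fold, Aqp3 19.5-fold, Anxa8 14.1-fold and Upk3a 1.52-fold higher. The exact lower limits of these ratios were 21.0, 15.9, 11.4 and 1.21. For Upk2 the floor gives no bound above 1. Without the Aqp3-high cluster Upk1a turned to a log2 ratio of -0.52, and to -1.10 when each cell was named on its own, so its direction rests on that cluster. Under the same 2 settings Upk2 was at 0.70 and 0.16 and Upk3a at 0.00, and with a pseudocount of 10 CPM they were at 0.42 and 0.70. The median log2 ratio of all genes was 0.29, and 0.41 after scaling by trimmed means.

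In proximal luminal-like cells 7 of the 10 genes were higher in the proximal library, against 25.9% of 15608 genes, and 1 was lower, against 10.3%. Of the 7, Upk2, Upk3a, Upk3b, Aqp3 and Ivl, with 0 to 5 ventral UMIs, reached the UMI minimum through the proximal library alone, and nothing is read from their count. Sprr1a was 51.9-fold higher (34.3–82.8), Upk2 2.94-fold (1.25–9.09) and Gsta4 2.62-fold (2.31–2.98). Against the floor, Ivl was 5.83-fold, Upk3a 3.25-fold and Aqp3 2.02-fold higher, with exact lower limits of 4.72, 2.63 and 1.63. For Upk3b the floor gives no bound above 1. Upk1a was 2.02-fold lower in the proximal library (1.85–2.20), a call lost with 4000 variable genes, a pseudocount of 10 CPM, trimmed-mean scaling or the mean of per-cell CPM. Upk1b had a ratio of 0.845 (0.726–0.989) and Anxa8 of 1.71 (0.293–68.9). The median log2 ratio of all genes was 0.32. Of the 89 ventral cells, 31 drew more than 5% of their UMIs from the secretory genes Sbp and Spink1 of distal luminal cells. Without such cells the Upk2 and Gsta4 log2 ratios were 0.74 and 0.50, no longer past 2-fold, and Upk1b at -1.19 and Anxa8 at 1.19 passed it. With each cell named on its own the calls moved the same way, with Upk2 at 0.42, Gsta4 at 0.46, Upk1b at -1.36 and Anxa8 at 3.47. A pseudocount of 10 CPM left Upk2, Upk3a, Upk3b and Aqp3 between 0.15 and 0.79, and Upk3b was at 0.61 with the stricter cell filter.

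Other genes of the same programmes were read from lists fixed alongside the 10 genes. Of 13 other urothelial genes, 11 were compared in the Aqp3-high against the other basal-like cells; 6 were higher and 0 lower, against 6.97% and 14.8% of all genes, with a median log2 ratio of 1.51 against -0.17 over all genes. Upk3bl, a uroplakin-3-like gene, stood at 67.0 against 0.620 CPM, Psca at 903 against 47.7 CPM, Grhl3, a grainyhead factor of barrier epithelium, at 54.1 against 2.48 CPM, and Pparg, a nuclear receptor of urothelial differentiation, at 62.7 against 5.95 CPM. Upk3bl, with 5 UMIs in the other cells, reached the UMI minimum through the cluster alone and was not taken out of the 6. Psca is also a proximal luminal marker, and that list summed to 4549 CPM in the cluster against 659 and 744 CPM. Within the cluster Psca stood at 97.5 CPM in cells nearest to basal and 1592 CPM in those nearest to proximal luminal. The part of these markers was not tested. In the Upk1a-high against the other proximal luminal-like cells 3 of 12 were higher, against 1.82% of all genes, and 0 lower: Grhl3 at 11.3 against 2.11 CPM, Shh, the hedgehog ligand, at 7.97 against 1.79 CPM and Snx31, a sorting nexin of umbrella cells, at 29.9 against 12.2 CPM. In basal-like against proximal luminal-like cells 3 of 12 were higher (Upk3bl, Shh, Grhl3), against 8.3% of all genes, and 3 lower (Psca, Elf3, Krt7), against 9.12%, with a median of -0.19 against -0.06. Psca is also among the markers that named the proximal luminal-like class, so nothing is read from its direction here. Grhl3 was the one gene of this list past 2-fold in each of the 3 comparisons; this was noticed after the values were seen.

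Of the other squamous and cornified envelope genes, 20 were compared in the Aqp3-high cluster; 14 were higher, against 6.97% of all genes, and 0 lower, with a median log2 ratio of 1.59 against -0.17. Dsg3, a desmosomal cadherin, stood at 53.0 against 0.248 CPM, Serpinb2, a protease inhibitor of keratinocytes, at 34.1 against 0.372 CPM, Sprr2a3 at 92.1 against 4.46 CPM and Krt6a, a keratin of activated epithelium, at 293 against 24.2 CPM. Sprr2a3 has near-identical copies, so its reads may be divided among them. In the other basal-like cells 5 UMIs make 0.620 CPM, so Dsg3 and Serpinb2 reached the UMI minimum through the cluster alone. Such genes were not taken out of the 14. In the Upk1a-high cluster 5 of 19 were higher, against 1.82% of all genes, among them Ly6d at 277 against 48.8 CPM and Krt6a at 96.7 against 46.0 CPM, and Sprr2a3 was lower, at 33.1 against 73.2 CPM. In basal-like against proximal luminal-like cells 12 of 22 were higher, against 8.3% of all genes, and 1 lower (Sbsn), against 9.12%, led by Lgals7 at 1085 against 10.3 CPM. Among genes of late cornification, Krtdap and Flg had no UMI in basal-like cells, and Sprr3 and Cnfn were at or below 0.350 CPM in the Upk1a-high and Aqp3-high clusters. Lor, which encodes the envelope protein loricrin, was present: it stood at 34.0 CPM (30.8–37.4) in basal-like and 7.56 CPM (6.72–8.48) in proximal luminal-like cells of the proximal library, at 21.7 CPM in the Aqp3-high and 40.7 CPM in the other basal-like cells, and at 51.0 CPM (35.9–70.3) in ventral basal-like cells. These 5 were chosen after their values were seen.

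The gene families of Aqp3, Anxa8 and Gsta4 did not move as one. Of 3 other aquaporins compared in the Aqp3-high cluster none passed, and Aqp5, a channel of secretory epithelium, was lower in the Upk1a-high cluster, at 38.3 against 180 CPM. In the Aqp3-high cluster 6.97% of all genes were higher and 14.8% lower. Of 9 other annexins 5 were higher in the Aqp3-high cluster, led by Anxa1 at 3435 against 356 CPM, and 1 (Anxa6) was lower. Of 17 other glutathione S-transferases 6 were higher in the Aqp3-high cluster, among them Gsto1 at 4290 against 672 CPM, and 4 lower. In the Upk1a-high cluster, where 1.82% of all genes were higher and 4.37% lower, 1 of 11 annexins was higher and 2 lower, and 0 of 20 transferases were higher and 3 lower. Of the 13 stress genes 0 were higher and 6 lower in the Aqp3-high cluster, and 0 of 13 passed in either direction in the Upk1a-high cluster.

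The genes whose level over the 21 clusters of the proximal library was most like that of a given gene among the 10 were ranked by Pearson's r of log2(CPM + 10), over 11742 genes. Clusters share a library and differ in depth and size, so r is a description. Upk1a was closest to Tmem30b, with r = 0.863, Upk1b to Tmprss2 (0.946), Upk2 to Fer1l4 (0.941), Upk3a to Elavl2 (0.936) and Upk3b to Adh7 (0.884). Ivl was closest to Sntg1 (0.938) and then Grhl3 (0.932), Sprr1a to Ocln (0.904), Anxa8 to Aldh3a1 (0.909) and Gsta4 to Nipal1 (0.919). Among the 10 themselves the closest pairs were Aqp3 with Ivl (0.892) and Upk3a with Upk3b (0.858), and the least alike were Upk1a and Anxa8 (-0.058). The known partners Upk1a and Upk2 had r = 0.593, and Upk1b and Upk3a r = 0.391.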

How the data were processed

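Single-cell RNA of 2 libraries of mouse prostate was analysed. The deposited matrices hold whole-number UMI counts, which Cell Ranger 7.0.0 made on mm10 per the submitters' processing notes; the annotation release is not given in the sources used here. No normalization by the authors is recorded. Barcodes with under 500 genes or over 10% mitochondrial UMIs were removed (226 ventral, 635 proximal), as were 11 cells called by Scrublet. Each library was clustered alone (scanpy 1.11.5, Python 3.11.15): 10000 UMIs per cell, log scale, 2000 variable genes without the 10 genes and the urothelial and squamous lists, 30 principal components, 15 neighbours, Leiden resolution 1, seed 0. Clusters took the best of 23 marker classes, needing at least 3 markers found in 25% of cells; this scoring rule was set after clusters had been looked at.

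UMIs were summed per class and given as CPM with exact Poisson intervals, shares with Clopper-Pearson intervals and ratios with exact intervals conditional on the total, all at 95%, covering counting error alone. Where no UMI was found, 3 counts is the upper limit used. A fold was called at 2 on CPM + 1 among genes with at least 20 UMIs. With 1 library per region and class no p-value was computed. A share was taken after thinning to 3000 UMIs, leaving out shallower cells. Cells named on their own took the class whose markers had the highest mean level.

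The 10 genes, the lists and the comparisons were chosen with earlier results of these data known. All 10 genes are named, with up to 4 genes per list by size of fold past 2-fold and, for likeness, the leading gene or genes of the 3 with the highest correlation among genes with at least 200 UMIs, without mitochondrial, ribosomal protein, Gm-number and Rik genes. For Aqp3 the leading gene is not reported here. The calls were checked on simulated counts. Alternatives varied the cell filters, doublet removal, clustering resolution, seed and genes, naming, free RNA, pseudocount, scaling, UMI minimum and thinning. The removal of Sbp-rich and Spink1-rich cells, of Upk3a-rich cells and of the Aqp3-high cluster was added after seeing the data.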

Additional observations from a re-analysis of the deposited data

Results flagged for a closer look

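Signal of 3 of the 10 genes was found in cell classes of the proximal library that the comparisons did not use, above the level in its macrophage-like cells. In 61 endothelial-like cells Sprr1a stood at 92.8 CPM (73.0–116) and Gsta4 at 65.6 CPM (49.1–85.8), against 34.5 CPM (23.9–48.3) and 6.10 CPM (2.24–13.3) in 79 macrophage-like cells. A single endothelial-like cell held 52.0% of those Sprr1a UMIs and 41.5% of those of Gsta4. In 515 fibroblast-like cells Anxa8 stood at 18.8 CPM (15.3–22.8), against 0 UMIs in macrophage-like cells, and Gsta4 at 55.4 CPM (49.3–62.0). Anxa8 was highest in fibroblast-like cluster 10, at 35.9 CPM, and a single cell held 21.6% of the class's Anxa8 UMIs, while Gsta4 was found in 62 of 453 thinned fibroblast-like cells. Proximal luminal markers summed to 2514 CPM in the endothelial-like and 920 CPM in the macrophage-like cells, and to 1982 CPM in fibroblast-like cells with Gsta4 against 755 CPM in those without it. In fibroblast-like cells with Anxa8 the sum was 1212 CPM, against 941 CPM. Basal markers summed to 644 CPM in fibroblast-like cells with Anxa8 against 214 CPM without it, and to 518 CPM with Gsta4 against 182 CPM. The part of these markers was not tested. Sprr1a in fibroblast-like cells, at 34.8 CPM, was at the macrophage-like level.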

How the results depend on the processing

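Calls and ratios mostly held, but not every ratio could move. Over the alternatives, 873 ratios of single genes kept their side and direction, 24 passed 2-fold anew in the same direction, 29 no longer passed and 5 turned. Of the counts and shares, 290 stayed close and 47 moved. The 873 include ratios fixed in advance, because another UMI minimum leaves a ratio as it is. Leaving out Sbp-rich and Spink1-rich cells removed 0 proximal-library epithelial cells, so ratios within that library stayed. Leaving out Upk3a-rich cells removed no ventral cell, so ratios within the ventral library stayed. Some of the 290 were fixed in the same way. Without the Aqp3-high cluster, and with each cell named on its own, the Ivl log2 ratio of basal-like to proximal luminal-like cells turned to -1.88 and -2.20, and that of Upk1a between libraries in basal-like cells to -0.52 and -1.10. With at least 1000 genes and at most 5% mitochondrial UMIs, the Sprr1a log2 ratio of ventral basal-like to proximal luminal-like cells turned from -0.39 to 1.23, and was -3.48 with own naming. Without the Aqp3-high cluster and with own naming, 7 in place of 3 genes were lower in basal-like cells. The cause was not tested.

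The share of basal-like cells with any uroplakin (12.4%) was 9.24% with at least 1000 genes and at most 5% mitochondrial UMIs, 10.0% with doublets removed at a fixed rate, 7.05% with cells named on their own, 6.52% without the Aqp3-high cluster, 4.14% and 18.8% thinned to 1000 and 6000 UMIs, and 30.4% unthinned. For proximal luminal-like cells (55.3%) it was 50.4% under the stricter cell filter, 28.6% and 74.2% by thinning depth, and 92.6% unthinned or 78.4% with at least 2 UMIs. For distal luminal-like cells (43.4%) it was 34.6% with cells named on their own, 21.8% and 63.9% by thinning depth, and 87.0% and 77.5% unthinned. With Ivl or Sprr1a added, the basal-like share (6.33%) was 4.81%, 1.57% and 1.04% under the stricter filter, own naming and without the Aqp3-high cluster, 1.63% and 10.4% by thinning depth, and 19.5% and 8.92% unthinned. The proximal luminal-like share (29.8%) was 32.7% under the stricter filter, 9.99% and 47.0% by thinning depth, and 72.0% and 55.3% unthinned. Basal-like cells with Aqp3, Ivl or Anxa8 (17.9%) were 14.6% with own naming, 4.30% without the Aqp3-high cluster, 7.95% and 26.9% by thinning depth, and 31.6% and 21.2% unthinned.

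In proximal luminal-like cells between libraries the 1 lower gene became 0 with 4000 variable genes, a pseudocount of 10 CPM, trimmed-mean scaling and the mean of per-cell CPM, and 2 with own naming and without the Sbp-rich and Spink1-rich cells; the 7 higher became 3 with a pseudocount of 10. That pseudocount also left 3 of 6 genes higher in proximal luminal-like over distal luminal-like cells, without Upk2, Upk3a and Aqp3. In basal-like cells between libraries 1 gene was lower with own naming in place of 0. With at least 100 UMIs, which left 3 of 5 genes to compare, 2 in place of 4 were higher in the ventral proximal luminal-like cells. Without the 7 Upk3a-rich cells Upk3a was no longer past 2-fold between classes or libraries, at 0.31, 0.00 and 0.47 on the log2 scale, and Upk3b stood at 0.76 between libraries.

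No paired analysis was possible because each region is 1 library, and there was no replicate to leave out. The median ventral basal-like cell had 4933 UMIs against 12100 in the other library, and 0 UMIs of Upk2, Upk3a and Upk3b there do not show absence at this depth.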
